A study of Mus musculus with 6 samples.

Results

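Fatty acid synthesis and desaturation were followed through 10 genes: the transcription factor genes Srebf1 and Mlxipl, the synthesis genes Acly, Acaca and Fasn, the elongase gene Elovl6, and the desaturase genes Scd1, Scd2, Fads1 and Fads2. They were taken by symbol from a table of 54532 genes, and all 10 were matched and passed the filter on low counts that kept 14715 genes for testing. The data are RNA sequencing counts of whole quadriceps muscle from mouse pups at postnatal day 10 (10 days old), fed chow. There were 3 Myf5Cre-Pcyt2 libraries, from a mouse with Cre driven from Myf5 and muscle described as lacking Pcyt2, and 3 control libraries (Pcyt2 flox/flox). Both groups thus carry the floxed allele, and the labels do not say that the controls carry Cre, so loss of Pcyt2 and presence of Cre cannot be told apart. Myf5 is expressed in myogenic precursors and, in mice, also in precursors of some brown adipocytes, while the other cells of a muscle mostly do not come from that lineage. Nothing in the labels ties libraries to litters or cages, and a p-value here measures only how these libraries vary.

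Cells make fatty acids from citrate. ATP citrate lyase (Acly) releases acetyl-CoA in the cytosol, acetyl-CoA carboxylase (Acaca) makes malonyl-CoA, and fatty acid synthase (Fasn) joins these units into palmitate. Elovl6 lengthens palmitate to stearate, the stearoyl-CoA desaturases Scd1 and Scd2 place a double bond in saturated chains, and Fads2 and Fads1 act in turn on the route from linoleic to arachidonic acid. SREBP1, the product of Srebf1, and ChREBP, the product of Mlxipl, switch on many of these genes in liver and fat in response to insulin and sugars. The acyl chains end in triglycerides and in membrane phospholipids, among them phosphatidylethanolamine, for which Pcyt2 makes the activated precursor CDP-ethanolamine.

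The promoters of the transcription factor gene that fell and of the synthase gene at the end of the pathway are shown, because SREBP1 and ChREBP are known to act through short DNA motifs. The table of RefSeq promoters (GRCm38.p6) runs from 250 bases before to 50 bases after each start and held 10 promoters of 7 of the 10 genes, all but Scd1, Scd2 and Fads1. Capitals mark matches, on either strand, to the E-box CACGTG, the NF-Y box CCAAT, the sterol element core TCACNCCAC and the GC box GGGCGG. The 1st Mlxipl promoter is at chr5:135089640-135089939 and the 2nd at chr5:135106641-135106940, both on the plus strand, and the Fasn promoter is at chr11:120824498-120824797 on the minus strand.
Mlxipl promoter 1: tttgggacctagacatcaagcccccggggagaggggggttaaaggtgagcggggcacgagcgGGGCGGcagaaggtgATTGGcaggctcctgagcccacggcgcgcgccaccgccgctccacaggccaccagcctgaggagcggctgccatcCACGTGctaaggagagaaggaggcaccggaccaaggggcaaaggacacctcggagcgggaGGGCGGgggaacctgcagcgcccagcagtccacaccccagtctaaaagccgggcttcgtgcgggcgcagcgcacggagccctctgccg
Mlxipl promoter 2: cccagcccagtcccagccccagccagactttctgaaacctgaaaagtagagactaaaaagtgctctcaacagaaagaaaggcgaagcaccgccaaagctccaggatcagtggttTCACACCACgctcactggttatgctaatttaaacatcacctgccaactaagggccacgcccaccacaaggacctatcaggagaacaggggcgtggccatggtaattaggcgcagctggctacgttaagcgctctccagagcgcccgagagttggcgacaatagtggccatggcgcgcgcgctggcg
Fasn promoter: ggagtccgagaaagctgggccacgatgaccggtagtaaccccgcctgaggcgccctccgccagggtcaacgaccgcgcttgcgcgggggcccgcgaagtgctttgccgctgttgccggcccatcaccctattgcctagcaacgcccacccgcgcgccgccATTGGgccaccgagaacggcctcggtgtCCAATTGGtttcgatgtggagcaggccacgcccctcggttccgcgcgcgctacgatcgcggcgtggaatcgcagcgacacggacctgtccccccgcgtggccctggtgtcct

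Promoter 1 of Mlxipl held 1 E-box, 1 NF-Y box and 2 GC boxes, and promoter 2 held 1 sterol element core. The Fasn promoter held 3 NF-Y boxes, of which a pair overlap on opposite strands, and no match to the other motifs. Among the 10 promoters, 1 held an E-box, 5 an NF-Y box, 1 a sterol element core and 5 a GC box. Over all 32851 promoters in the table the shares were 7.15% for the E-box, 37.4% for the NF-Y box, 1.24% for the sterol element core and 35.7% for the GC box. The matches describe letters in these windows and say nothing of binding.

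The libraries held 17775898 to 20446920 counts and 20921 to 23122 detected genes. Pcyt2 had 280, 328 and 272 counts in Myf5Cre-Pcyt2 and 353, 277 and 277 in control, and its log2 fold change of −0.28 (SE 0.11) missed the threshold (edgeR adjusted p = 0.0944). Which exons were floxed is not stated, so this count does not check the labels. Skeletal muscle markers summed to 101480 to 127660 TMM-normalised CPM (counts scaled to the library's adjusted total) in Myf5Cre-Pcyt2 and 154420 to 214608 CPM in control. Of 8 muscle markers, with a median log2 fold change of −0.66, 4 were lower and 0 higher in Myf5Cre-Pcyt2: Ckm, Actn3, Mylpf and Tnnt3. That is 50% called, against 18.6% of all tested genes in either direction and 9.59% lower. The 4 calls were lost with the replicate block (0.0655 to 0.204) and without Myf5Cre-Pcyt2 replicate 2 or 3 (0.0696 to 0.158). Tnnt3 and Mylpf were also lost without control replicate 2 (0.0769 and 0.0608), Tnnt3 without Myf5Cre-Pcyt2 replicate 1 (0.0619) and Mylpf without control replicate 3 (0.0587). The number of muscle markers lower was 5 with DESeq2, limma-voom and library size alone, and 6 without the filter on low counts. Adipocyte markers stood apart in 2 control libraries: they summed to 1203, 1265 and 1382 CPM in Myf5Cre-Pcyt2 replicates 1, 2 and 3, against 1861, 924 and 1341 CPM in control replicates 1, 2 and 3. Hepatocyte markers gave 277 counts in Myf5Cre-Pcyt2 replicate 1 and 13 to 41 counts in the other libraries.

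The 10 genes passed the test about as often as genes in general. In edgeR's quasi-likelihood test with an adjusted p under 0.05, Fads1 was higher in Myf5Cre-Pcyt2, Mlxipl was lower, and 8 did not pass. That is 1 higher against a background of 9.02% of all tested genes, 1 lower against 9.59%, and 2 of 10 (20%) against 18.6% in either direction. The groups did not overlap for 4 of the 10 genes (Mlxipl, Scd2, Fads1 and Fads2), against 39% of all tested genes. The median log2 fold change of the 10 was 0.18, against −0.002 over all tested genes, and 7 of the 10 values were positive. Together the 10 genes took 330, 359 and 335 CPM in Myf5Cre-Pcyt2 and 355, 282 and 319 CPM in control.

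**Figure D1:**
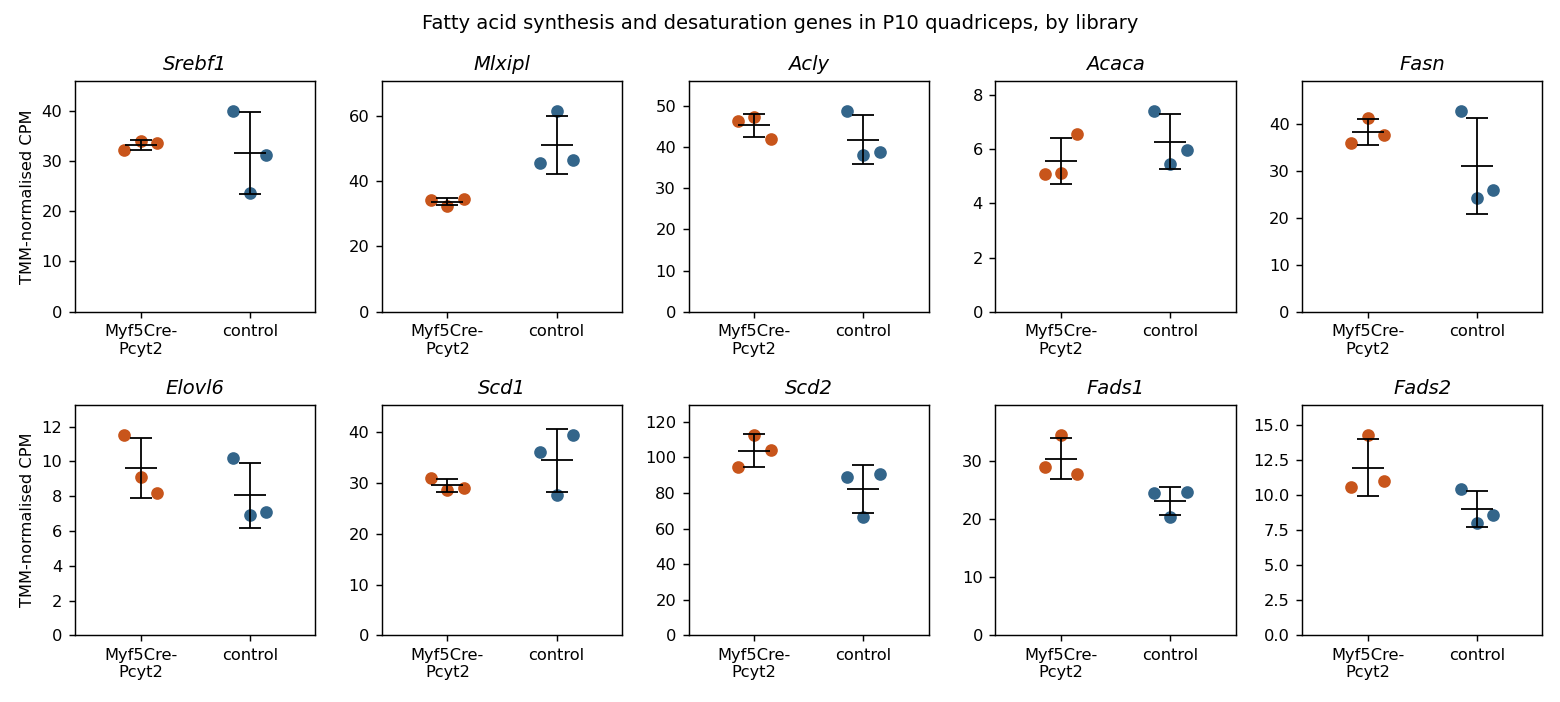
TMM-normalised CPM of each of the 10 genes in every library, with Myf5Cre-Pcyt2 on the left and control on the right of each panel; points run from replicate 1 to 3, horizontal lines are group means and bars are SD (n = 3). Mlxipl lies at 32.4 to 34.5 CPM in Myf5Cre-Pcyt2, below the 45.5 to 61.5 CPM of control, while the Srebf1 values of Myf5Cre-Pcyt2 lie inside the control range.

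Of the transcription factor genes, Mlxipl (ENSMUSG00000005373, chr5:135089890-135138382, plus strand, GRCm38, as are all gene positions here) fell to 65.9% of control. Its level was 34.2, 32.4 and 34.5 CPM in Myf5Cre-Pcyt2 and 45.5, 61.5 and 46.5 CPM in control. All Myf5Cre-Pcyt2 libraries were below all control libraries, and control replicate 2 was the highest. The mean was 33.7 ± 1.11 CPM in Myf5Cre-Pcyt2 and 51.2 ± 8.95 CPM in control (SD, n = 3 each), a difference of −0.60 on the log2 scale (SE 0.12, 95% interval −0.86 to −0.34, edgeR adjusted p = 0.00828). Its exons share 3.46% of their 50-base stretches with other genes, mostly the antisense gene Gm43500, which had 1 to 3 counts per library. The call was made under all 14 alternatives, with log2 fold changes of −0.68 to −0.38 and adjusted p-values up to 0.0463. Counts per gene do not separate the Mlxipl transcripts that start at its different promoters. Control replicate 2 also had the highest muscle marker sum, and the Myf5Cre-Pcyt2 libraries had the lower ones. Whether muscle fibre content has a part in the Mlxipl result was not tested. In bulk tissue, fewer cells of a type and less RNA per cell cannot be told apart.

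Srebf1 (chr11:60199089-60222581, minus strand) did not pass. It had 32.1, 33.9 and 33.5 CPM in Myf5Cre-Pcyt2 and 39.9, 23.6 and 31.2 CPM in control, so all Myf5Cre-Pcyt2 values lay inside the control range. The log2 fold change was 0.07 (SE 0.15, 95% interval −0.27 to 0.41, adjusted p = 0.780), and it was −0.10 without control replicate 2. The order of the controls, with replicate 1 highest and replicate 2 lowest, was that of the adipocyte markers. A share of 1.33% of its 50-base stretches also lies in other genes, mostly Rai1 on the opposite strand. Counts per gene do not separate the Srebf1 transcripts that start at its several promoters.

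The synthesis genes did not pass either. Fasn (chr11:120805846-120824547, minus strand) lies 188 kb from Pcyt2 on the same chromosome. It had 36.0, 41.4 and 37.8 CPM in Myf5Cre-Pcyt2 and 42.8, 24.4 and 26.1 CPM in control. Control replicate 1 alone was above all 3 Myf5Cre-Pcyt2 libraries, and the other two controls were below them. The log2 fold change was 0.30 (SE 0.18, 95% interval −0.10 to 0.70, adjusted p = 0.258). Without control replicate 1 it was 0.61 (adjusted p = 0.00568), and without control replicate 2 it was 0.16 (adjusted p = 0.610). Fasn also passed without the filter on low counts (0.0468). Acly (chr11:100476353-100528000, minus strand) had 46.4, 47.3 and 42.1 CPM in Myf5Cre-Pcyt2 and 48.8, 38.1 and 38.8 CPM in control, with the same library on top. Its log2 fold change was 0.11 (SE 0.11, 95% interval −0.13 to 0.35, adjusted p = 0.494). Acaca (chr11:84129672-84401651, plus strand), which encodes an acetyl-CoA carboxylase, had 5.07, 5.11 and 6.56 CPM in Myf5Cre-Pcyt2 and 7.41, 5.45 and 5.97 CPM in control. Its groups overlapped and the log2 fold change was −0.17 (SE 0.17, 95% interval −0.56 to 0.22, adjusted p = 0.524). The sign of Acaca turned when scaling used library size alone (0.03). Of the 50-base stretches of Acaca exons 30.4% also occur in other genes, most of them in the processed pseudogene Gm5182, so its count is uncertain.

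The elongase gene Elovl6 (chr3:129532355-129638495, plus strand) had 11.5, 9.13 and 8.18 CPM in Myf5Cre-Pcyt2 and 10.2, 6.90 and 7.07 CPM in control. Control replicate 1 lay among the Myf5Cre-Pcyt2 values and the other controls below them. The log2 fold change was 0.25 (SE 0.18, 95% interval −0.16 to 0.65, adjusted p = 0.368).

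**Figure D2:**
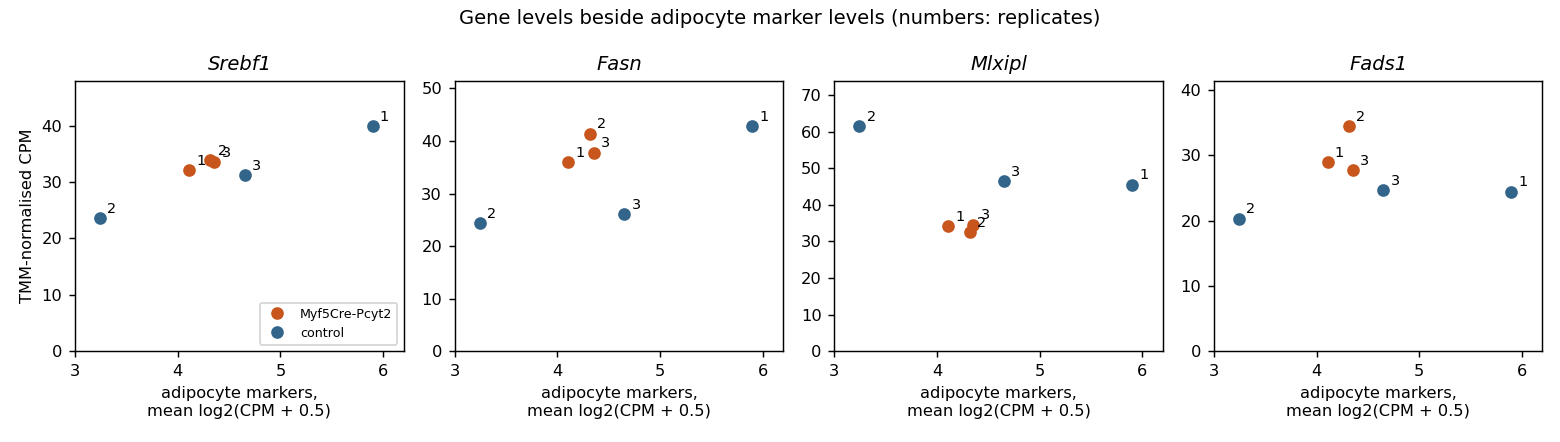
TMM-normalised CPM of Srebf1, Fasn, Mlxipl and Fads1 in each library (vertical axes, from 0) against the mean log2(CPM + 0.5) of 12 adipocyte markers (horizontal axes, from 3); numbers are replicates. Adipocyte marker means span 4.11 to 4.35 in Myf5Cre-Pcyt2 and 3.24 to 5.90 in control, and control replicate 1 has the highest Srebf1 and Fasn, at 39.9 and 42.8 CPM.

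Among controls, Fasn, Acly and Elovl6 stood high in replicate 1, while Srebf1 was spread over 39.9, 23.6 and 31.2 CPM in replicates 1, 2 and 3. Control replicate 1 had the highest control value of these 4 genes, and of Acaca and Fads2 as well (7.41 and 10.4 CPM). Scd1, Scd2 and Fads1 were highest in control replicate 3 (39.4, 90.9 and 24.7 CPM), and Mlxipl in control replicate 2 (61.5 CPM). Control replicate 1 also had the highest adipocyte marker level, a mean log2(CPM + 0.5) of 5.90. In the Myf5Cre-Pcyt2 libraries the marker level was 4.11, 4.32 and 4.35, and in control replicates 2 and 3 it was 3.24 and 4.65. The 12 adipocyte markers, all detected in every library, had a median log2 fold change of −0.54, with 1 of 12 positive. Of these markers 0 passed in edgeR, DESeq2 or limma-voom, against 18.6% of all tested genes in edgeR. In edgeR 3 had an unadjusted p under 0.05, a cut met by at least 18.6% of all tested genes. The number passing depended on the settings, since 4 were lower without control replicate 2 and 9 were lower in edgeR without the filter on low counts. With their own mean as a covariate, 2 were higher. Ucp1, the uncoupling protein of brown fat, had 8.22, 7.20 and 7.11 CPM in Myf5Cre-Pcyt2 and 75.5, 1.80 and 30.9 CPM in control (log2 fold change −2.27, SE 0.78, adjusted p = 0.0660). Its groups overlapped. It passed without control replicate 2 (adjusted p = 0.00297) and without the filter on low counts (1.1e-74). The log2 fold change was still −2.27 without the filter, so that adjusted p does not measure how the libraries vary. With the adipocyte marker mean as a covariate, an alternative chosen after seeing the data, 5 of the 10 genes passed (Mlxipl, Fasn, Scd2, Fads1 and Fads2). Among all 14715 tested genes 3296 passed in that fit, against 2739 without the covariate. Fasn then had a log2 fold change of 0.45 (adjusted p = 0.0169) and Srebf1 0.20 (adjusted p = 0.0956). Beyond these values, the part of fat tissue in the results was not tested.

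Of the 4 desaturase genes 3 had higher values in every Myf5Cre-Pcyt2 library than in any control library, and 1 of these passed the test. Among all tested genes 39% did not overlap between the groups in either direction, and 9.02% passed as higher. Over all 10 genes the number not overlapping, 4, was near that share. Fads1 (ENSMUSG00000010663, chr19:10182888-10196877, plus strand) rose 1.31-fold. It had 29.0, 34.5 and 27.8 CPM in Myf5Cre-Pcyt2 and 24.5, 20.3 and 24.7 CPM in control. All Myf5Cre-Pcyt2 libraries were above all controls, with Myf5Cre-Pcyt2 replicate 2 the highest and control replicate 2 the lowest. The mean was 30.4 ± 3.59 CPM in Myf5Cre-Pcyt2 and 23.1 ± 2.46 CPM in control (SD, n = 3 each), a difference of 0.39 on the log2 scale (SE 0.11, 95% interval 0.15 to 0.64, edgeR adjusted p = 0.0346). The call was lost without Myf5Cre-Pcyt2 replicates 1, 2 and 3 (0.0511, 0.149 and 0.0540), without control replicate 2 (0.118) and with the replicate block (0.0748).

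Fads2 (chr19:10062765-10101746, minus strand), its neighbour and partner in the pathway, had 10.6, 14.3 and 11.0 CPM in Myf5Cre-Pcyt2 and 10.4, 8.01 and 8.57 CPM in control. The groups did not overlap, although Myf5Cre-Pcyt2 replicate 1 and control replicate 1 nearly met. The log2 fold change was 0.41 (SE 0.15, 95% interval 0.07 to 0.74), as large as that of Fads1, but it did not pass (adjusted p = 0.0835). It passed without control replicate 1 (0.0468), with library size alone (0.0327) and without the filter on low counts (0.0295). Fads2 was not shown to differ from Fads1 in its response.

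Scd2 (chr19:44293674-44306864, plus strand), a stearoyl-CoA desaturase known in mice from brain and neonatal tissues, had 94.6, 112.7 and 104.2 CPM in Myf5Cre-Pcyt2 and 89.2, 66.6 and 90.9 CPM in control. The groups did not overlap, and control replicate 2 was the lowest. The log2 fold change was 0.34 (SE 0.12, 95% interval 0.06 to 0.61), which did not pass (adjusted p = 0.0802). It passed with library size alone (0.0301) and without the filter on low counts (0.0140). Scd1 (chr19:44394455-44407879, minus strand), the main form in adult liver and fat, had 31.0, 28.5 and 29.1 CPM in Myf5Cre-Pcyt2 and 36.2, 27.6 and 39.4 CPM in control. The Myf5Cre-Pcyt2 values lay above control replicate 2 and below the other controls. Its log2 fold change was −0.22 (SE 0.12, 95% interval −0.49 to 0.05, adjusted p = 0.222), and without control replicate 2 it was −0.36 and passed (0.0455).

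**Figure D3:**
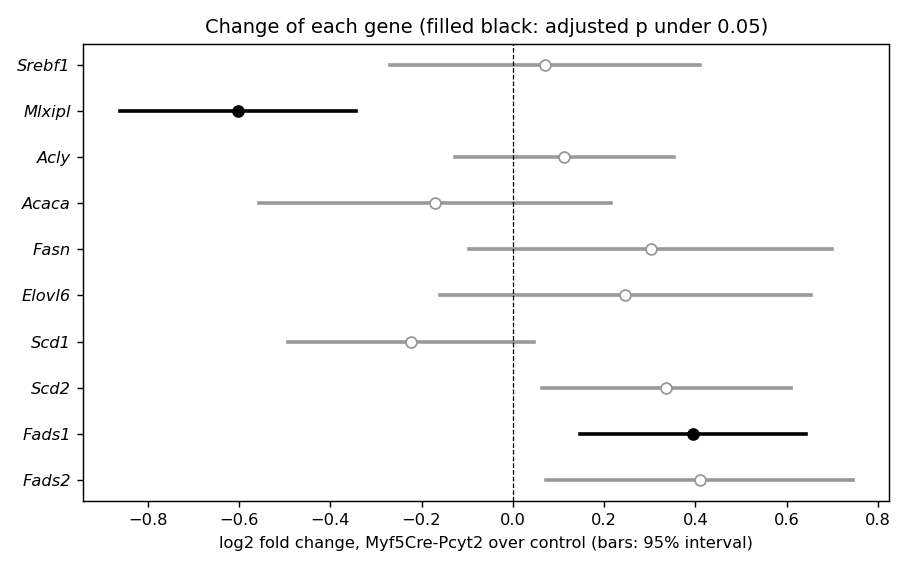
Log2 fold change of each gene, Myf5Cre-Pcyt2 over control, from edgeR, with an approximate 95% interval computed from its F statistic (not adjusted for the number of genes). Filled black points have an adjusted p under 0.05 over all tested genes. Mlxipl at −0.60 and Fads1 at 0.39 are filled, and the intervals of Scd2 and Fads2 lie above 0 without passing after adjustment.

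The share of Scd2 in the Scd1 and Scd2 counts also did not overlap between the groups. Neither gene passed alone, and Scd2 alone did not overlap, like 39% of all tested genes. How often such a share separates the groups for other pairs of genes was not counted. Scd2 made up 75.3, 79.8 and 78.2% of the Scd1 and Scd2 counts in Myf5Cre-Pcyt2 and 71.2, 70.7 and 69.7% in control. Every Myf5Cre-Pcyt2 library was above every control library, and the exact (Clopper-Pearson) 95% intervals did not overlap between groups, from 73.5% at the lowest in Myf5Cre-Pcyt2 to 73.0% at the highest in control. These intervals cover counting error only. The mean share was 77.8 ± 2.26% in Myf5Cre-Pcyt2 and 70.5 ± 0.731% in control (SD, n = 3 each), a difference of 7.25 percentage points (two-sided exact permutation p = 0.1, the smallest that 3 against 3 libraries allow). Leaving out each library in turn gave differences of 6.24 to 8.47 points. The share does not depend on the scaling between libraries. Of the 50-base stretches of their exons, Scd1 shares 4.56% and Scd2 3.97% with other genes, 145 stretches with each other. The close relative Scd3 had 0 counts in all Myf5Cre-Pcyt2 libraries and 1, 0 and 1 in control, and Scd4 had 1 to 3 counts in every library.

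**Figure D4:**
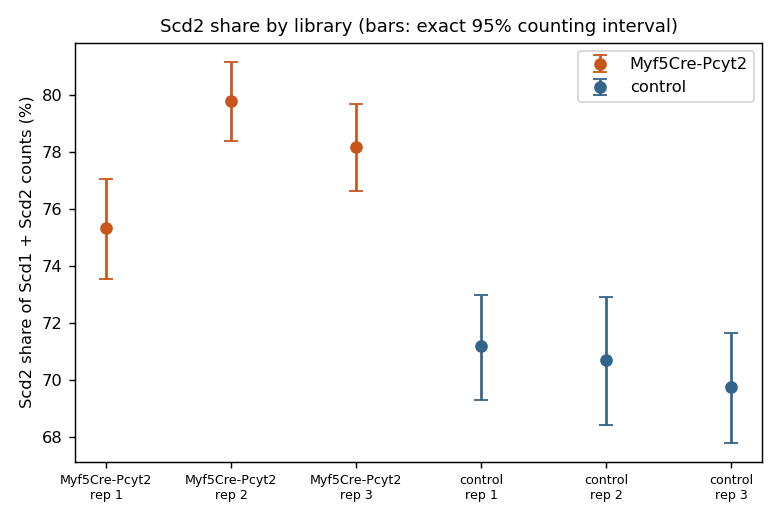
Share of Scd2 in the Scd1 and Scd2 counts of each library (vertical axis in percent, starting above 0), with exact 95% intervals for counting error. The 3 Myf5Cre-Pcyt2 libraries lie at 75.3 to 79.8%, above the 3 control libraries at 69.7 to 71.2%.

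Markers of nerve sheath cells were highest and lowest in the same libraries as 3 of the desaturase genes. Schwann cell and myelin markers summed to 704, 949 and 735 CPM in Myf5Cre-Pcyt2 and 585, 480 and 533 CPM in control, with Myf5Cre-Pcyt2 replicate 2 highest and control replicate 2 lowest, as for Fads1, Fads2 and Scd2. The TMM scaling factors had the same extremes, at 1.12 and 0.853. The muscle marker sum had the reverse, at 101480 CPM in Myf5Cre-Pcyt2 replicate 2 and 214608 CPM in control replicate 2. The shared order is thus not particular to these markers. Of 11 tested markers 5 were higher and 0 lower, a share of 45.5% against 18.6% of all tested genes in either direction and 9.02% higher. They were led by Sox10, the transcription factor of the lineage (log2 fold change 0.92, SE 0.16, adjusted p = 0.00554), and Prx, a myelin sheath gene (0.64, SE 0.13, adjusted p = 0.00873). Pmp22, a gene of a myelin protein, was higher by 0.56 (SE 0.12, adjusted p = 0.0133), and its call was lost without Myf5Cre-Pcyt2 replicate 2 (0.0627). Of these markers 8 were higher when scaled by library size alone or tested without the filter on low counts, and 3 without Myf5Cre-Pcyt2 replicate 2. With library size alone 3225 of all 14715 tested genes were higher, against 1328 with TMM. In the other marker lists 1 of 8 fibroblast markers was higher (Pdgfra, log2 fold change 0.54) and 1 of 8 endothelial markers was lower (Emcn, −0.32). Each list thus had 12.5% called, against 18.6% of all tested genes. Of 8 macrophage markers 0 passed the threshold in edgeR, DESeq2 or limma-voom, against 18.6% of all tested genes in edgeR. In edgeR 2 had an unadjusted p under 0.05, a cut met by at least 18.6% of all tested genes. Of the macrophage markers Mrc1 had the smallest p (log2 fold change 0.29, adjusted p = 0.0718) and passed without control replicate 3 (0.0227). Emcn was lost without each library but control replicate 3 (0.0536 to 0.108), with the replicate block (0.0756) and with library size alone (0.456). Scaling by library size alone gave 4 fibroblast, 1 endothelial and 2 macrophage markers higher, again beside 3225 of all 14715 tested genes. Without the filter on low counts 2 macrophage markers were higher and 1 was lower. The part of other cell types in the desaturase values was not tested.

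Levels per kilobase used the length of all annotated exons of a gene together, so they compare genes only roughly. Acaca is uncertain here too, as 30.4% of its 50-base stretches occur in other genes. Per kilobase, Scd2 stood highest at 19.0 ± 1.66 CPM per kb in Myf5Cre-Pcyt2 and 15.1 ± 2.48 CPM per kb in control (SD, n = 3 each). In Myf5Cre-Pcyt2 Acly came next at 8.58, then Fads1, Mlxipl, Scd1 and Srebf1 at 6.32 to 5.88, whose neighbours overlapped, then Fads2 and Fasn at 3.63 and 3.51, Elovl6 at 1.49 and Acaca at 0.327 CPM per kb. In control Mlxipl came next at 9.24, followed by Acly, Scd1, Srebf1 and Fads1 at 7.93 to 4.81, each overlapping the next, then Fasn and Fads2 at 2.84 and 2.73, Elovl6 at 1.25 and Acaca at 0.368 CPM per kb. Mlxipl thus stood 4th in Myf5Cre-Pcyt2, where it overlapped both neighbours, and 2nd in control, where it overlapped Acly.

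Genes around these steps were counted in lists chosen with earlier results of these data known. The supply of acetyl-CoA and NADPH held 12 tested genes, with 0 higher and 2 lower and a median log2 fold change of −0.22. The share called, 16.7%, was near the 18.6% of all tested genes. The number lower was 0 with library size alone and without Myf5Cre-Pcyt2 replicate 2, and 1 with the replicate block and without Myf5Cre-Pcyt2 replicate 1 or 3 or control replicate 1 or 3. It was 3 with DESeq2 size factors and without control replicate 2, and 5 without the filter on low counts. Me1, the cytosolic malic enzyme, had 23.8 ± 10.2 CPM in Myf5Cre-Pcyt2 and 46.5 ± 14.1 CPM in control (SD, n = 3 each), a difference of −0.97 on the log2 scale (SE 0.28, adjusted p = 0.0372). Taldo1, transaldolase of the pentose phosphate pathway, fell by 0.34 on the log2 scale (SE 0.08, adjusted p = 0.0173). Me1 was lost without Myf5Cre-Pcyt2 replicates 1 and 2 (0.0853 and 0.108), without control replicates 1 and 3 (0.0937 and 0.0508), with DESeq2 (0.107) and with library size alone (0.0641). Taldo1 was lost without Myf5Cre-Pcyt2 replicates 2 and 3 (0.0763 and 0.0756), with the replicate block (0.0569) and with library size alone (0.343).

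**Figure D5:**
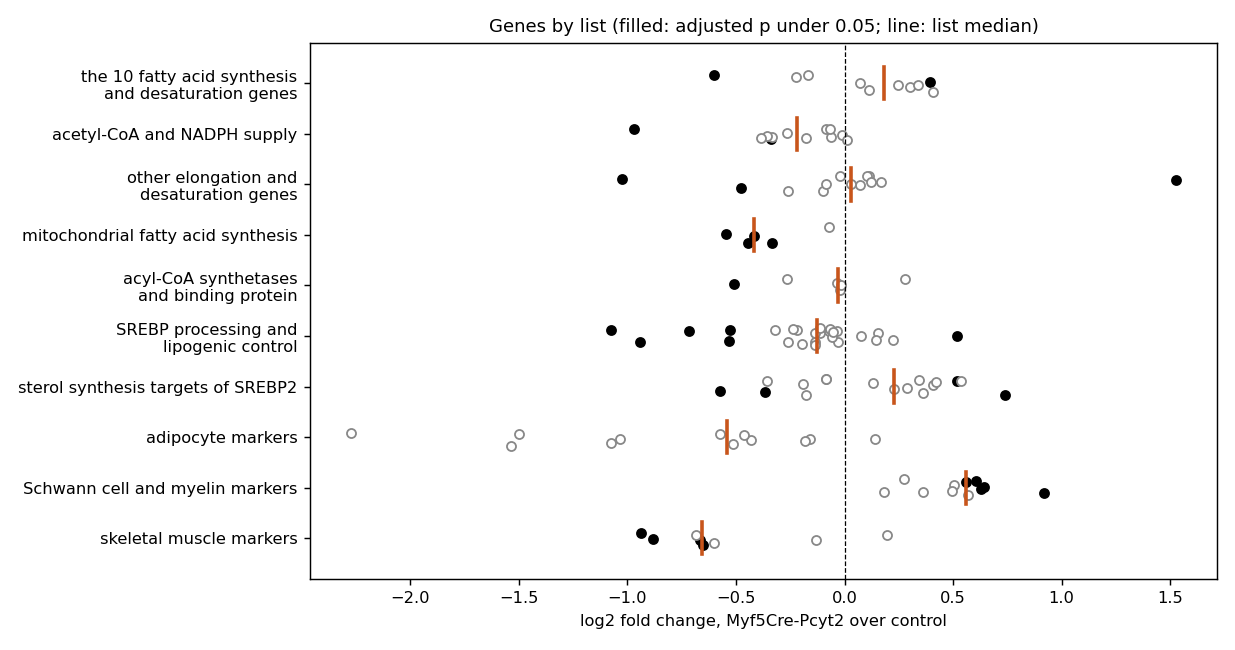
Log2 fold change of each tested gene, Myf5Cre-Pcyt2 over control, by list; filled points have an adjusted p under 0.05 and the upright lines are list medians. The median is 0.18 for the 10 fatty acid synthesis and desaturation genes and −0.42 for mitochondrial fatty acid synthesis.

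Of 17 other genes of elongation and desaturation 13 were tested, with 1 higher, 2 lower and a median of 0.03. The share called was 23.1%, against 18.6% of all tested genes. Elovl7, an elongase of long chains, had 6.67, 2.05 and 4.11 CPM in Myf5Cre-Pcyt2 and 1.16, 1.74 and 1.51 CPM in control. The groups did not overlap, and the log2 fold change was 1.53 (SE 0.39, adjusted p = 0.0224). Hacd1, the dehydratase of the elongation cycle that is abundant in muscle, had 124 ± 16.0 CPM in Myf5Cre-Pcyt2 and 173 ± 12.9 CPM in control (SD, n = 3 each), a difference of −0.48 on the log2 scale (SE 0.11, adjusted p = 0.0158). Fads6, a gene of the desaturase family, fell by 1.02 (SE 0.21, adjusted p = 0.00956) and passed under all 14 alternatives. Elovl7 was lost without Myf5Cre-Pcyt2 replicates 1 and 3, without each control library (0.0514 to 0.0569 over these 5) and with limma-voom (0.0593). Hacd1 was lost without Myf5Cre-Pcyt2 replicates 2 and 3 (0.0657 and 0.0513), without control replicate 2 (0.0519) and with library size alone (0.0651).

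The separate fatty acid synthesis of mitochondria, which feeds lipoic acid, had the largest share of calls among the lists counted. Its 5 tested genes had a median log2 fold change of −0.42, with 4 lower and 0 higher. That is 80% called, against 18.6% of all tested genes in either direction and 9.59% lower. Mecr, the reductase of the last step, had 14.7 ± 1.61 CPM in Myf5Cre-Pcyt2 and 21.4 ± 2.78 CPM in control (SD, n = 3 each, log2 fold change −0.54, SE 0.12, adjusted p = 0.0147). The condensing enzyme Oxsm (−0.44, SE 0.11, adjusted p = 0.0211), the acyl carrier protein Ndufab1, also a subunit of complex I (−0.42, SE 0.11, adjusted p = 0.0276), and the reductase subunit Cbr4 (−0.34, SE 0.09, adjusted p = 0.0329) were also lower. The number lower was 0 with library size alone, without Myf5Cre-Pcyt2 replicate 2 and without control replicate 2. It was 1 without Myf5Cre-Pcyt2 replicate 3 and without control replicate 3, 2 with the replicate block, and 3 with DESeq2 and without Myf5Cre-Pcyt2 replicate 1. Of 6 acyl-CoA synthetase and acyl-CoA binding protein genes 1 was lower, a share of 16.7%, near the 18.6% of all tested genes. It was Acsl4, which prefers arachidonic acid (log2 fold change −0.51, SE 0.15, adjusted p = 0.0378). The call was lost when scaled by library size (0.0944), with the replicate block (0.0587), without Myf5Cre-Pcyt2 replicates 2 and 3 (0.138 and 0.0916) and without control replicates 1 and 2 (0.0558 and 0.133).

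Among 26 genes that process SREBP proteins or otherwise control lipogenesis, 1 was higher, 5 were lower and the median was −0.13. The share called was 23.1%, against 18.6% of all tested genes. Srebf2, which encodes the SREBP of sterol synthesis, had 57.3 ± 3.92 CPM in Myf5Cre-Pcyt2 and 40.0 ± 8.21 CPM in control (SD, n = 3 each), a difference of 0.52 on the log2 scale (SE 0.13, adjusted p = 0.0222). Thrb, a thyroid hormone receptor, fell by 0.94 (SE 0.17, adjusted p = 0.00575). The AMP-activated kinase subunits Prkag3 and Prkaa2 had log2 fold changes of −1.08 (SE 0.19, adjusted p = 0.00615) and −0.53 (SE 0.13, adjusted p = 0.0215). The other 2 lower genes were Nr1h3, a liver X receptor, and Prkab2, another kinase subunit. Thrb and Prkag3 passed under all 14 alternatives. Srebf2 was lost without Myf5Cre-Pcyt2 replicates 1 and 2 (0.0557 and 0.0918) and control replicates 1 and 2 (0.0511 and 0.0784). Prkaa2 was lost with the replicate block (0.0558), without Myf5Cre-Pcyt2 replicates 2 and 3 (0.0903 and 0.0696) and without control replicate 2 (0.0693). The number higher was 4 with library size alone, where 3225 of all 14715 tested genes were higher, against 1328 with TMM. The number lower was 3 with library size alone, without Myf5Cre-Pcyt2 replicate 3 and without control replicate 2, and 2 with the replicate block and without Myf5Cre-Pcyt2 replicate 2.

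Of 17 tested sterol synthesis targets of SREBP2, 2 were higher, 2 were lower and the median was 0.23. The share called was 23.5%, against 18.6% of all tested genes. Sqle, squalene epoxidase, had 9.64 ± 0.319 CPM in Myf5Cre-Pcyt2 and 5.78 ± 1.74 CPM in control (SD, n = 3 each), a difference of 0.74 on the log2 scale (SE 0.20, adjusted p = 0.0264), and Lss, lanosterol synthase, was higher by 0.52 (SE 0.16, adjusted p = 0.0461). Mevalonate kinase (Mvk) had −0.57 on the log2 scale (SE 0.13, adjusted p = 0.0156), and Dhcr7, the reductase of the last step to cholesterol, had −0.37 (SE 0.11, adjusted p = 0.0366). The number higher was 7 with library size alone, where 3225 of all 14715 tested genes were higher, against 1328 with TMM. It was 6 without control replicate 3, and 4 without the filter and with the adipocyte covariate. It was 1 with the replicate block and without control replicate 1, and 0 without any 1 of the Myf5Cre-Pcyt2 libraries or without control replicate 2. Lss was lost in 9 of the 14 alternatives, and Sqle without each Myf5Cre-Pcyt2 library (0.0516 to 0.0966) and without control replicate 2 (0.0553). Mvk was lost without Myf5Cre-Pcyt2 replicates 2 and 3 (0.0643 and 0.0620) and with library size alone (0.0903). Dhcr7 was lost in 8 of the 14 alternatives, among them without each library but control replicate 1 (0.0641 to 0.118).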

How the data were processed

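The authors' deposited table holds raw read counts per Ensembl gene, on GRCm38/mm10. The submitters' processing notes name Trim Galore 0.5.0, Bowtie2 2.3.4.1, Subread 1.6.2 and its featureCounts, with no order of use. Per the labels' protocols, RNA came from a column kit, with 1.3 µg per library. For read length, strand setting and reads with several matches, nothing is stated.

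Symbols, positions and exon lengths came from GENCODE M21, which matched 159 of 159 genes asked for, 1 of them through a RefSeq synonym. Counts were analysed in R 4.3.3 with edgeR 4.0.16 (filterByExpr, TMM, two-sided quasi-likelihood test, Benjamini-Hochberg adjustment over 14715 genes, threshold 0.05), limma 3.58.1 and DESeq2 1.42.0, and drawn with Python 3.11.15 and matplotlib 3.10.9. Fold changes run Myf5Cre-Pcyt2 over control. SE is an approximation, the absolute log2 fold change divided by the square root of the test's F statistic, and the 95% intervals were built from it. The biological coefficient of variation was 11.6%. The procedure was tested on simulated data. The share of Scd2 was compared with an exact permutation test. Of the 14 alternatives, 13 were planned: limma-voom, DESeq2, its size factors in edgeR, scaling by library size alone, no filter, a filter of 1 CPM in 3 libraries, a replicate block, and leaving out each library. The covariate of adipocyte markers was chosen after seeing the data.

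The 10 genes and all lists were chosen with earlier results of these data known. Named were the 10 genes, up to 4 genes with the smallest p past the threshold in every other list, or 1 where none passed, and Pcyt2, Myf5, Scd3, Scd4 and Fads3 where needed. The rule also selected 1 marker that is not reported here but stays in the counts and sums. For Myf5 the log2 value was 0.13 (SE 0.18, adjusted p = 0.633). Same-numbered libraries of the groups had deviations correlating at −0.126, −0.179 and 0.0119 over genes, so the numbers were not taken to pair pups. All pairs of libraries differed beyond sampling noise.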

Additional observations from a re-analysis of the deposited data

How the results depend on the processing

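Of the 10 genes, 2 passed in the edgeR fit as reported, 4 with library size alone, 5 without the filter on low counts, 1 with the replicate block, 5 with the adipocyte marker covariate (chosen after seeing the data) and 1 to 4 when each library was left out in turn. Among all genes, 2739 passed as reported, 3724 with library size alone and 3296 with the adipocyte marker covariate. With the replicate block 1731 passed, and 846 to 2785 when each library was left out. The fewest came without Myf5Cre-Pcyt2 replicate 2 (846), Myf5Cre-Pcyt2 replicate 3 (1280) and control replicate 2 (1300). Same-numbered libraries share only a number, and the block is a check on the spread. A mean of paired differences equals the difference of the means, so pairing is no check of the Scd2 share. With library size alone the all-gene median moved by 0.21 (log2), 86.6% of the calls were higher against 48.5% with TMM, and the 10 genes had a median of 0.38 against 0.21 over all genes. No result changed sign past the threshold. Without the filter on low counts 28169 genes were tested and 3609 passed. That fit gave some genes far smaller adjusted p-values at nearly the same log2 fold change, such as 7.7e-22 against 0.00615 for Prkag3. Calls made only in that fit are therefore no measure of how the libraries vary. Acaca, with 94 to 142 counts per library, and Elovl6 and Fads2, with 119 to 216 and 138 to 327, are the genes whose depth limits the precision most. Where a call was lost, the cause was not tested.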
